A study of Mus musculus with 8 samples.

Results

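Cholesterol leaves macrophages and osteoclast precursor (OCP) cells through a small set of proteins, many of them targets of the liver X receptors (LXRs). The genes described here were 9 genes of this pathway, Nr1h3, Abca1, Abcg1, Apoe, Mylip, Lpcat3, Scarb1, Npc1 and Npc2, chosen by symbol from the 25124 genes of the deposited expression table. All 9 were in the table, and all 9 were among the 11700 genes with enough signal to be tested. RNA sequencing was performed on 8 libraries in 4 groups of 2, named no PRDX1 + no RANKL, PRDX1 + no RANKL, no PRDX1 + RANKL and PRDX1 + RANKL. PRDX1 is peroxiredoxin 1, given here as a recombinant extracellular protein, and RANKL is the cytokine that drives OCP cells toward osteoclasts.

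All 4 groups held OCP cells, which are bone marrow macrophages, from mice of no stated genetic modification, and all were cultured with the macrophage growth factor M-CSF (30 ng/ml). The first group received neither further agent. The other groups received PRDX1 (200 nM), RANKL (100 ng/ml) or both for 48 h. Marrow cells were held in M-CSF at 5 ng/ml for 16 h, and the non-adherent cells were then grown for 3 days in M-CSF at 30 ng/ml. The labels give C57BL/6 mice of 6 to 8 weeks, whereas the study's methods describe OCP cells from male ICR mice, and the strain could not be settled here. The PRDX1 protein carried a histidine tag, was made in bacteria and was cleared of endotoxin, and no group received a control protein. Neither the labels nor the methods say that the 2 libraries of a group came from separate animals or cultures, so the p-values measure the spread between these libraries, which may be technical.

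Oxysterols and other cholesterol derivatives activate the LXRs, which bind DNA together with a retinoid X receptor and switch on genes that export cholesterol. ABCA1 and ABCG1 carry cholesterol across the plasma membrane to lipid acceptors such as apolipoprotein E, MYLIP is a ubiquitin ligase that limits lipoprotein uptake, and LPCAT3 remodels membrane phospholipids. NPC1 and NPC2 move cholesterol out of the lysosome. When sterols run low, a separate factor, SREBP2, turns on cholesterol synthesis and uptake, so the 2 systems act in opposite directions on cell cholesterol.

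Upstream sequence was matched by symbol in the RefSeq table (build GRCm38.p6) for 6 of the 9 genes, of which 3 are shown: the receptor gene Nr1h3, the transporter gene Abca1 and Mylip, whose expression patterns over the 4 groups differed as described further on. Each is the 250 bases before the start of the listed transcript, written 5′ to 3′ on the gene's strand, and capitals mark the stretch, or the first of equal ones, nearest to the LXR motif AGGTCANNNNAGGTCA, a direct repeat with 4 bases between its repeats, searched on both strands. The windows lie at chr2:91195117-91195366 on the minus strand for Nr1h3, at chr4:53159896-53160145 on the minus strand for Abca1 and at chr13:45389492-45389741 on the plus strand for Mylip.
Nr1h3: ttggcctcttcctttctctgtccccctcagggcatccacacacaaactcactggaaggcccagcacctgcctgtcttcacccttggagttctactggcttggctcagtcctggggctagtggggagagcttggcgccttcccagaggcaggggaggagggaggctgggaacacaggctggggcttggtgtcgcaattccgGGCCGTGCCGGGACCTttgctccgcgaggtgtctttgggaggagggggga
Abca1: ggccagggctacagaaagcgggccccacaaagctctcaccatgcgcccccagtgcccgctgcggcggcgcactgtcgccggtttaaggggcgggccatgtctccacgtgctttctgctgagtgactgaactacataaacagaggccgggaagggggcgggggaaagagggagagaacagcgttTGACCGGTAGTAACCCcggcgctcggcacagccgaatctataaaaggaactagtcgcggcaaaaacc
Mylip: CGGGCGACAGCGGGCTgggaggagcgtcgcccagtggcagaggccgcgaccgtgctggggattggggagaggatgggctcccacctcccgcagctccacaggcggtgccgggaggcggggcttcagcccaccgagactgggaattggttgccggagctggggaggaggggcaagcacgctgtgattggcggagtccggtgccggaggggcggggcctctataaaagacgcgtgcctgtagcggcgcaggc
In the Abca1 window 9 of the 12 fixed bases of the motif matched, read on the strand opposite to the gene's, 67 to 52 bases before the start, and 18.5% of all 32841 promoter windows of this length held a match at least as good. The best match had 8 of 12 bases in Nr1h3, which 70.6% of windows reached, and 6 of 12 in Mylip, which 100% reached and where 16 stretches tied. The letters TATAAA, searched on the gene's strand, were present in the Abca1 and Mylip windows and in 7.59% of all windows. These matches describe letters in short windows of 1 transcript each and not binding.

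Expression is given as FPKM, the fragments counted on a gene scaled by the length of its transcript and by the library's total. Differences are given as log2 fold changes of FPKM + 1 with their standard error (SE), from a limma model of all 8 libraries with 11700 genes. A gene passed the test when its Benjamini-Hochberg adjusted p was under 0.05 and its fold change at least 1.5, which is 0.585 on the log2 scale, and "rose" and "fell" are kept for such genes. Library totals ran from 27283676 to 46173465 reads, and between 4.75% and 9.69% of gene reads in a library fell on its 10 top genes. The 9 genes held from 114 reads (Nr1h3) to 65900 reads (Npc2) in a library, so that none of their values rested on a handful of reads.

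By mean FPKM over the 8 libraries, Apoe (677) stood at the 99.4th percentile and Npc2 (347) at the 98.5th percentile of the genes tested. Scarb1, Npc1 and Lpcat3 had means of 39.4, 29.7 and 24.3 FPKM. Nr1h3 (11.4), Abca1 (6.45), Mylip (6.08) and Abcg1 (4.26) were the lowest of the 9. From the lowest to the highest group, Nr1h3 spanned 11.3-fold, Apoe 8.33-fold, Mylip 2.54-fold and Abca1 2.26-fold, whereas Scarb1 spanned 1.29-fold and Abcg1 1.36-fold.

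**Figure D1:**
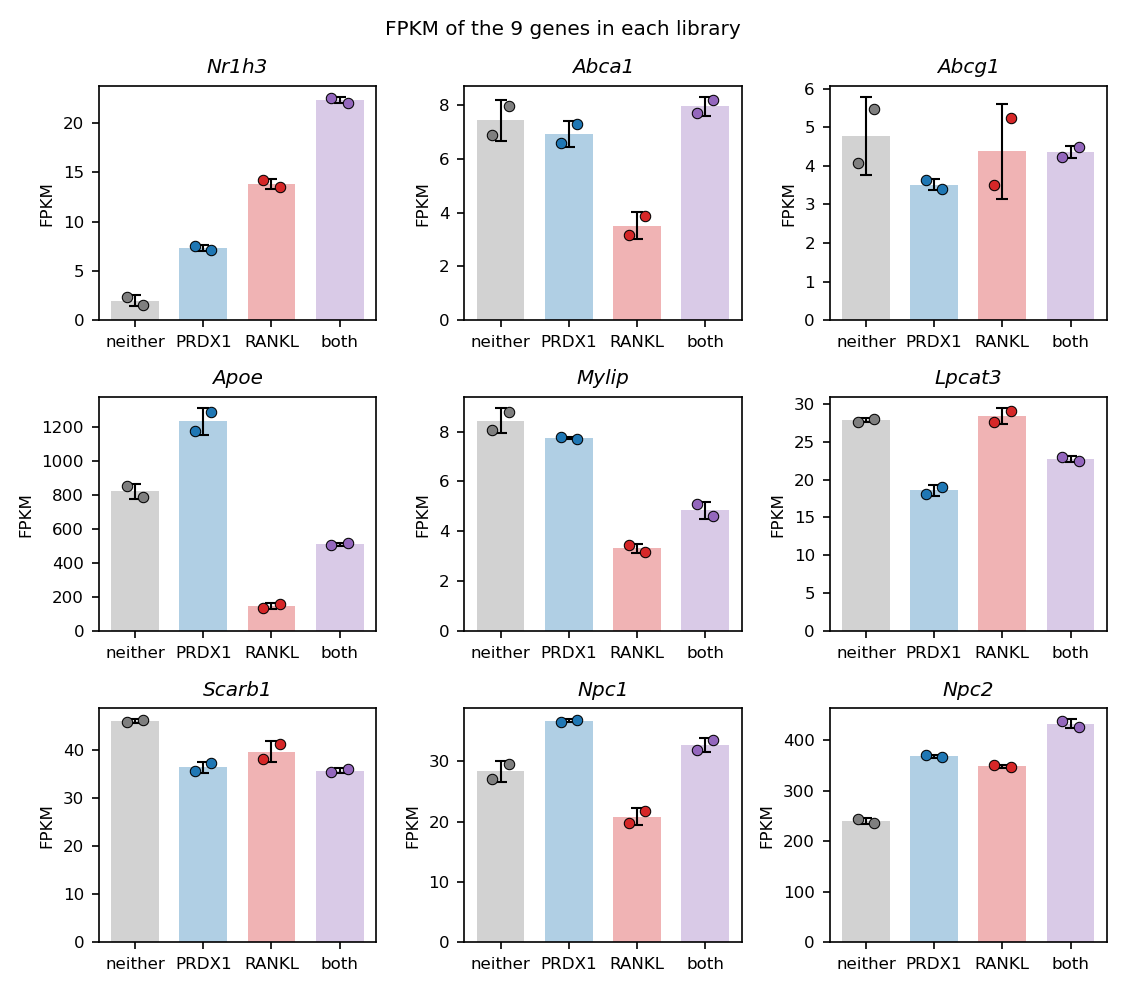
FPKM of the 9 genes in the 4 groups (neither agent, PRDX1, RANKL, both). Points are libraries, bars are means and error bars are the SD of the 2 libraries. Nr1h3 climbs from 1.98 to 22.3 FPKM, Abca1 and Apoe are lowest with RANKL alone (3.51 and 148 FPKM), and Lpcat3 is lowest with PRDX1 alone (18.6 FPKM).

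The receptor gene Nr1h3 (NM_001355279, chr2:91184061-91195116 in mm10) encodes LXR alpha. It measured 2.37 and 1.58 FPKM in the 2 libraries with neither agent, 7.52 and 7.12 with PRDX1, 14.2 and 13.5 with RANKL, and 22.5 and 22.1 with both. Its 4 groups did not overlap, and each step from one group to the next in this order passed the test. PRDX1 without RANKL raised Nr1h3 by 1.49 on the log2 scale (SE 0.11, limma adjusted p = 8.16e-06). In the presence of RANKL the PRDX1 effect was 0.65 (SE 0.11, limma adjusted p = 0.000937). RANKL alone raised the gene by 2.33 (limma adjusted p = 5.19e-08), and both agents together by 2.98 over neither (limma adjusted p = 2.03e-08). The PRDX1 effect was smaller with RANKL than without it, by 0.84 on the log2 scale as a test of the difference itself (interaction -0.84, SE 0.16, limma adjusted p = 0.00349). Only 1.35% of the exon bases of Nr1h3 were shared with another annotated gene.

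Abca1 (NM_013454, chr4:53030789-53159895), the cholesterol exporter that loads lipid-poor apolipoproteins, followed a different order. It measured 6.88 and 7.95 FPKM with neither agent, 6.59 and 7.27 with PRDX1, 3.16 and 3.86 with RANKL, and 7.70 and 8.18 with both. The RANKL libraries were the 2 lowest of the 8, and the other 3 groups lay close together. With RANKL alone Abca1 fell by 0.90 on the log2 scale (SE 0.10, limma adjusted p = 2.72e-05). PRDX1 raised it by 0.99 in the presence of RANKL (SE 0.10, limma adjusted p = 3.07e-05). Without RANKL the PRDX1 effect was -0.08 (95% interval -0.31 to 0.14, limma adjusted p = 0.574), and both agents against neither gave 0.09 (95% interval -0.13 to 0.31, limma adjusted p = 0.502). The interaction was 1.08 (SE 0.14, limma adjusted p = 0.000464). On the log2 scale the PRDX1 effect on Abca1 was thus larger in RANKL-treated cells, whereas that on Nr1h3 was smaller there. In mean FPKM the Nr1h3 step was the larger one with RANKL (13.84 to 22.3, against 1.98 to 7.32 without it).

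Abcg1 (NM_009593, chr17:31057694-31117981), which exports cholesterol to HDL particles, passed the test in no comparison. It measured 4.06 and 5.48 FPKM with neither agent, 3.62 and 3.41 with PRDX1, 3.51 and 5.24 with RANKL, and 4.24 and 4.48 with both. The 2 libraries with neither agent and the 2 with RANKL alone spread more widely than the difference between most group means. The PRDX1 effect was -0.34 without RANKL (95% interval -0.69 to -0.0007, limma adjusted p = 0.125) and 0.01 with it (95% interval -0.33 to 0.36, limma adjusted p = 0.953). The RANKL effect without PRDX1 was -0.11 (95% interval -0.45 to 0.23, limma adjusted p = 0.558).

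Apoe (NM_001305844, chr7:19696244-19698621), the secreted acceptor of exported cholesterol, had the largest fall and the largest PRDX1 effect in RANKL-treated cells among the 9 genes. It measured 852 and 787 FPKM with neither agent, 1176 and 1285 with PRDX1, 134 and 161 with RANKL, and 504 and 516 with both. The 4 groups did not overlap, and each neighbouring pair in their order differed past the test. With RANKL alone Apoe fell by 2.47 on the log2 scale (SE 0.08, limma adjusted p = 3.27e-09), to 0.18 times its level with neither agent. PRDX1 raised it by 1.79 in the presence of RANKL (SE 0.08, limma adjusted p = 1.04e-07) and by 0.59 without RANKL (SE 0.08, limma adjusted p = 0.000434). The latter lay at the fold threshold, with a ratio of means of 1.502, and was 0.28 (limma adjusted p = 0.0192) under quantile normalization and 0.53 and 0.52 without the second library of either group. With both agents Apoe was below its level with neither (-0.68, limma adjusted p = 6.91e-05). The interaction was 1.20 (SE 0.11, limma adjusted p = 5.17e-05).

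Mylip (NM_153789, chr13:45389742-45411940), whose product is the ubiquitin ligase IDOL, was high without RANKL and low with it. It measured 8.07 and 8.79 FPKM with neither agent, 7.78 and 7.70 with PRDX1, 3.45 and 3.19 with RANKL, and 5.08 and 4.60 with both. With RANKL alone Mylip fell by 1.13 on the log2 scale (SE 0.08, limma adjusted p = 1.1e-06). The PRDX1 effect was -0.11 without RANKL (limma adjusted p = 0.355) and 0.43 with RANKL (SE 0.08, limma adjusted p = 0.00165), the latter short of the fold threshold. RANKL in the presence of PRDX1 gave -0.58 (limma adjusted p = 0.000326), just short of the threshold as well and past it under limma-voom (-0.76). The interaction was 0.54 (SE 0.11, limma adjusted p = 0.00696) and did not reach the fold threshold either, though it did without the second library with both agents (0.60).

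Lpcat3 (NM_145130, chr6:124663104-124704716) encodes an acyltransferase that enriches phospholipids in polyunsaturated chains, and it was lower in both PRDX1 groups. It measured 27.6 and 28.0 FPKM with neither agent, 18.1 and 19.1 with PRDX1, 27.6 and 29.1 with RANKL, and 22.9 and 22.4 with both. All 4 PRDX1 libraries lay below all 4 libraries without PRDX1. The PRDX1 effect was -0.56 without RANKL (SE 0.06, limma adjusted p = 6.27e-05) and -0.31 with it (SE 0.06, limma adjusted p = 0.00144). Both passed on p and neither on fold, the first with a ratio of means of 0.67 and past the threshold without the second PRDX1 library (-0.60). RANKL alone gave 0.03 (95% interval -0.10 to 0.15, limma adjusted p = 0.719), a difference whose sign depended on scaling. Lpcat3 shared 10.2% of its exon bases with Emg1 on the opposite strand, and reads were counted on both strands, so the 2 genes could not be fully told apart.

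Scarb1 (NM_016741, chr5:125277087-125341094) encodes the HDL receptor SR-BI, which moves cholesterol in either direction, and it passed the test in no comparison. It measured 45.8 and 46.3 FPKM with neither agent, 35.6 and 37.2 with PRDX1, 38.1 and 41.2 with RANKL, and 35.3 and 36.0 with both. The 2 libraries with neither agent were the highest of the 8. The PRDX1 effect was -0.33 without RANKL (SE 0.06, limma adjusted p = 0.00155) and -0.15 with it (SE 0.06, limma adjusted p = 0.0541), and the RANKL effect without PRDX1 was -0.21 (SE 0.06, limma adjusted p = 0.00756). None of these reached the fold threshold.

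The lysosomal exporters Npc1 and Npc2 were both higher with PRDX1. Npc1, on chromosome 18, encodes the membrane protein that receives cholesterol from NPC2, and it measured 27.1 and 29.5 FPKM with neither agent, 36.6 and 36.9 with PRDX1, 19.8 and 21.8 with RANKL, and 31.8 and 33.6 with both. Its 2 RANKL libraries were the lowest of the 8. PRDX1 raised Npc1 by 0.63 in the presence of RANKL (SE 0.07, limma adjusted p = 3.74e-05), a call that ended without the first RANKL library (0.56, limma adjusted p = 0.000309). Without RANKL the PRDX1 effect was 0.36 (limma adjusted p = 0.00233), under the fold threshold. Npc1 shared 4.52% of its exon bases with Rmc1 on the opposite strand.

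Npc2 (NM_023409, chr12:84754559-84773112) encodes the soluble carrier that hands lysosomal cholesterol to NPC1. It measured 244 and 236 FPKM with neither agent, 370.2 and 366 with PRDX1, 350.1 and 346 with RANKL, and 438 and 425 with both. Unlike Npc1, it was lowest with neither agent. Like those of Npc1, its groups did not overlap. PRDX1 without RANKL raised Npc2 by 0.61 on the log2 scale (SE 0.04, limma adjusted p = 3.52e-06), and both agents raised it by 0.84 over neither (SE 0.04, limma adjusted p = 1.08e-07). The PRDX1 effect with RANKL was 0.31 (SE 0.04, limma adjusted p = 0.000163), and RANKL alone gave 0.53 (SE 0.04, limma adjusted p = 1.46e-06), both under the fold threshold.

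**Figure D2:**
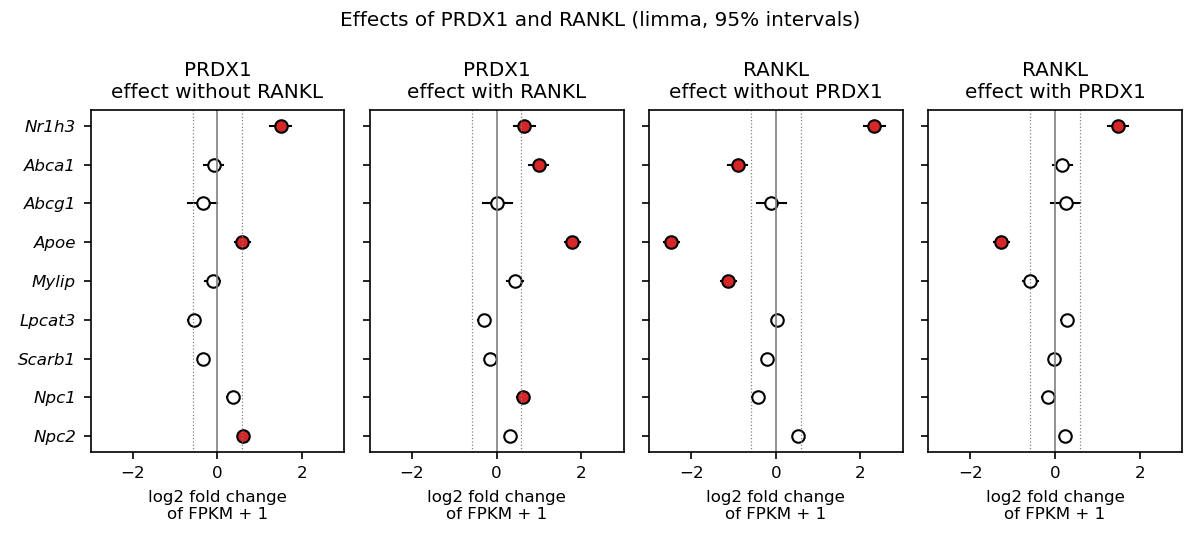
Log2 fold changes of FPKM + 1 for the 9 genes in the 4 single-agent comparisons, with 95% intervals from limma as lines. Filled points passed the test, open points did not, and dotted lines mark a 1.5-fold change. With RANKL present the PRDX1 effect is 1.79 for Apoe and 0.99 for Abca1, and the RANKL effect without PRDX1 is -2.47 for Apoe and 2.33 for Nr1h3.

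Set side by side, the comparisons share libraries with one another and so are not independent. PRDX1 without RANKL raised 3 of the 9 genes (Nr1h3, Apoe and Npc2) and lowered 0, where 5.79% of all genes tested passed, 3.8% upward and 1.99% downward. The median of the 9 genes was -0.08, beside -0.04 for all genes. Beside these 0 lowered genes by limma and 0 by limma-voom, 3 genes were lower at an unadjusted p under 0.05 (Lpcat3, Scarb1 and Abcg1) without passing. PRDX1 with RANKL raised 4 (Apoe, Abca1, Nr1h3 and Npc1) and lowered 0, where 10.2% of all genes passed (6.03% upward and 4.17% downward), with a median of 0.43 beside -0.06 for all genes. Here 2 genes were lower at an unadjusted p under 0.05, Lpcat3 and Scarb1, and limma-voom lowered 0. RANKL without PRDX1 raised 1 (Nr1h3) and lowered 3 (Apoe, Mylip and Abca1), where 21.8% of all genes passed (11.8% upward and 9.96% downward), with a median of -0.21 beside 0.10 for all genes.

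RANKL in the presence of PRDX1 changed 2 genes, raising Nr1h3 by 1.49 (limma adjusted p = 4.85e-06) while Apoe fell by 1.27 (limma adjusted p = 1.61e-06), where 8.5% of all genes passed, 4.52% upward and 3.98% downward. Against neither agent, both agents raised Nr1h3 and Npc2 and lowered Mylip and Apoe, 4 genes where 12.8% of all genes passed, 7.5% upward and 5.34% downward. Between the single agents, 5 genes passed where 25.1% of all genes did, 14.3% upward and 10.7% downward. Nr1h3 was higher with RANKL alone than with PRDX1 alone (0.83, limma adjusted p = 8.07e-05), and Apoe (-3.05), Mylip (-1.02), Abca1 (-0.82) and Npc1 (-0.79) were lower. The interaction passed for 3 genes, Apoe and Abca1 upward and Nr1h3 downward, where 8.85% of all genes passed, 4.5% upward and 4.35% downward. The libraries of the 2 groups did not overlap for 8 of the 9 genes with PRDX1 against neither agent, for 8 with both agents against RANKL and for 7 with RANKL against neither. Over all genes tested, the groups did not overlap for 65.8%, 71% and 77.9% in these comparisons. They did not overlap for 8 of the 9 genes with both agents against PRDX1, for 7 with both against neither and for 8 between the single agents, where 74.3%, 74.7% and 81.1% of all genes did not. With 2 libraries a group, lack of overlap was thus common among all genes.

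Marker genes of cell types differed between these groups. All 6 macrophage markers were detected in every library, and their summed FPKM was 2442 to 2482 with neither agent, 2664 to 2740 with PRDX1, 1407 to 1526 with RANKL and 2017 to 2051 with both. The summed FPKM of 9 osteoclast markers was 34.4 to 35.3, 80.4 to 84.8, 1834 to 1931 and 235 to 243 in the same order. The higher sum with PRDX1 alone came mainly from Acp5 (23.65 to 53.69 FPKM) and Atp6v0d2 (6.99 to 22.75). Of the 8 osteoclast markers tested, 3 rose and 1 (Itgb3) fell in that comparison. Apoe, Abca1, Mylip and Npc1 were lowest in the group where the macrophage sum was lowest and the osteoclast sum highest, and the part of these cell-state markers in their values was not tested. In these bulk samples, fewer cells of a type and less RNA per cell cannot be told apart.

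**Figure D3:**
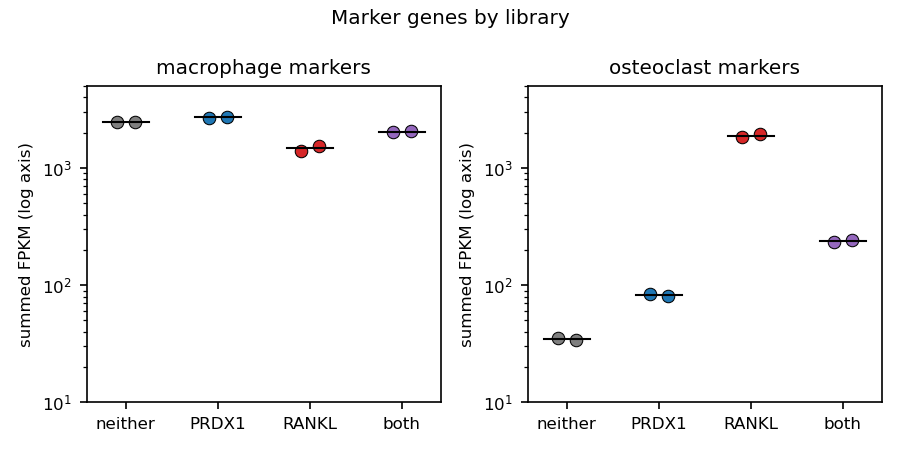
Summed FPKM of 6 macrophage markers and 9 osteoclast markers in each library, on log axes, with bars at the group means. The macrophage sum is lowest with RANKL (1407 to 1526) and the osteoclast sum highest there (1834 to 1931), falling to 235 to 243 with both agents.

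Markers of other marrow cells were low. Neutrophil markers summed to 8.02 to 16.4 FPKM without PRDX1 and 33.4 to 42.8 with it, and stromal markers to 7.48 to 10.4 without PRDX1 and 15.3 to 19.0 with it. The neutrophil sum was mostly S100a8 and S100a9 (17.3 and 21.5 of 42.8 FPKM in the first library with PRDX1 alone). Ngp passed in neither PRDX1 comparison, and Ly6g was too low to be tested. Of these lists, 4 of 5 neutrophil and 2 of 3 stromal markers tested rose with PRDX1 in the absence of RANKL, and 3 of 5 and 2 of 3 in its presence. The 1 dendritic cell marker tested, Ccr7, rose with PRDX1 in both (0.91 and 0.99). Their part in the PRDX1 effects on the 9 genes was not tested. The sums of the B cell, T cell and dendritic cell markers stayed at or below 2.08, 0.16 and 3.99 FPKM, and T cell markers had 1 to 3 of 4 genes at 0 in each library.

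Nr1h2, which encodes the other receptor, LXR beta, measured 29.8 and 28.9 FPKM with neither agent, 32.1 and 30.7 with PRDX1, 26.0 and 28.7 with RANKL, and 28.0 and 29.3 with both. Its levels were higher per length than those of Nr1h3 in every group, and it passed the test neither for PRDX1 nor for RANKL. A list of 9 nuclear receptors and co-repressors held Nr1h2, the retinoid X receptors, co-repressors and the separate receptors of the PPAR family, and 7 were tested. Of these, PRDX1 changed 0 without RANKL by limma and 0 by limma-voom, with 1 at an unadjusted p under 0.05 (Ppard, -0.34), and raised 2 with RANKL, Pparg (0.64) and Rxra (0.64), while RANKL without PRDX1 lowered Rxra, Pparg and Ppard, among others, and raised 1 (Rxrb). Rxra, the usual LXR partner, measured 18.3 and 18.9 FPKM with neither agent, 20.02 and 21.3 with PRDX1, 6.86 and 7.09 with RANKL, and 11.01 and 11.8 with both. With RANKL alone Rxra fell by 1.30 (limma adjusted p = 8.06e-08).

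Among 20 other LXR target genes, 14 were tested. PRDX1 without RANKL raised 4, namely Pltp, Cd5l, Tgm2 and Smpdl3a, and lowered 4 enzymes of fatty acid synthesis and desaturation, Scd2 (-2.70), Fads2 (-1.66), Scd1 (-1.63) and Fasn (-0.77). The median of the 14 was 0.23. With RANKL present, PRDX1 raised 6 and lowered 1, among them Arl4c (1.21), Mertk (1.12) and Scd2 (-1.15), the largest on the scale of FPKM + 1, which understates changes of low genes such as Cd5l (0.283 to 1.15 FPKM). RANKL without PRDX1 raised 1 and lowered 8, with a median of -1.02. The 1 raised gene was Pltp (2.27), which encodes a phospholipid transfer protein, and Fads2 (-2.27) and Cd5l (-2.23), a secreted macrophage protein, were among those that fell.

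Ch25h, the enzyme that makes the LXR ligand and SREBP suppressor 25-hydroxycholesterol, changed in all 3 of these comparisons. It measured 26.1 and 29.4 FPKM with neither agent, 48.0 and 46.7 with PRDX1, 1.37 and 1.53 with RANKL, and 9.81 and 9.98 with both. The 4 groups did not overlap. PRDX1 raised it by 0.75 without RANKL (limma adjusted p = 4.77e-05) and by 2.15 with RANKL (limma adjusted p = 1.75e-08), and it fell by 3.55 with RANKL alone (limma adjusted p = 1.71e-10). The oxysterol list had 3 of 8 genes tested, the other 2 being Cyp27a1 and Hsd3b7, enzymes of bile acid synthesis. Hsd3b7 rose with RANKL (0.84) and fell with PRDX1 in RANKL-treated cells (-0.59, a call that 0 of the other 3 scalings made), and Cyp27a1 fell with RANKL (-0.86).

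SREBP2 targets, which are switched on when sterols are low, were lower in the 3 treated groups than with neither agent. Of 12 genes tested, 10 fell with PRDX1 in the absence of RANKL (median -0.98), 10 fell with RANKL alone (median -1.05), and 12 fell with both agents against neither (median -1.18). PRDX1 in the presence of RANKL changed 0 by limma and 0 by limma-voom (median -0.20), although 7 were lower and 2 higher at an unadjusted p under 0.05. Insig1, a sterol-responsive regulator of SREBP processing, measured 38.2 and 35.9 FPKM with neither agent, 16.0 and 16.8 with PRDX1, 11.9 and 11.7 with RANKL, and 10.3 and 9.97 with both. The interaction passed for 10 of the 12, all upward.

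Of 13 genes of cholesterol uptake and storage, 10 were tested. PRDX1 raised 2 without RANKL (median 0.30) and raised 7 with RANKL (median 0.70), and RANKL alone lowered 7 and raised 1 (0 under quantile normalization; median -0.84). Plin2, which coats lipid droplets, rose by 0.96 and 0.81 with PRDX1 without and with RANKL, and Soat2, which esterifies cholesterol, by 0.90 and 1.13. Soat2 was low, with group means from 0.67 to 2.69 FPKM. Soat1 of the same list had group means from 29.55 to 67.67 FPKM. The PRDX1 effect on Soat1 was 0.41 without RANKL, under the fold threshold, and 0.70 with it, which passed. Cd36, a receptor for oxidised lipoproteins, rose by 1.61 with PRDX1 in RANKL-treated cells and fell by 2.94 with RANKL alone. In intracellular sterol transport, 16 of 18 genes were tested, and 1 fell (Stard4) and 1 rose (Lamp2) with PRDX1 without and with RANKL, respectively. In the latter comparison 2, 2 and 3 rose under quantile, upper-quartile and limma-voom scaling, and 7 were higher and 2 lower at an adjusted p under 0.05 by limma. RANKL lowered 6 and raised 1. Of 8 other efflux carriers and acceptors, 4 were tested, and Cav1, the caveolin gene, rose by 2.29 with PRDX1 without RANKL and by 5.47 with RANKL alone. With RANKL present the PRDX1 effect on Cav1 was -0.21 (limma adjusted p = 0.0223), under the fold threshold.

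**Figure D4:**
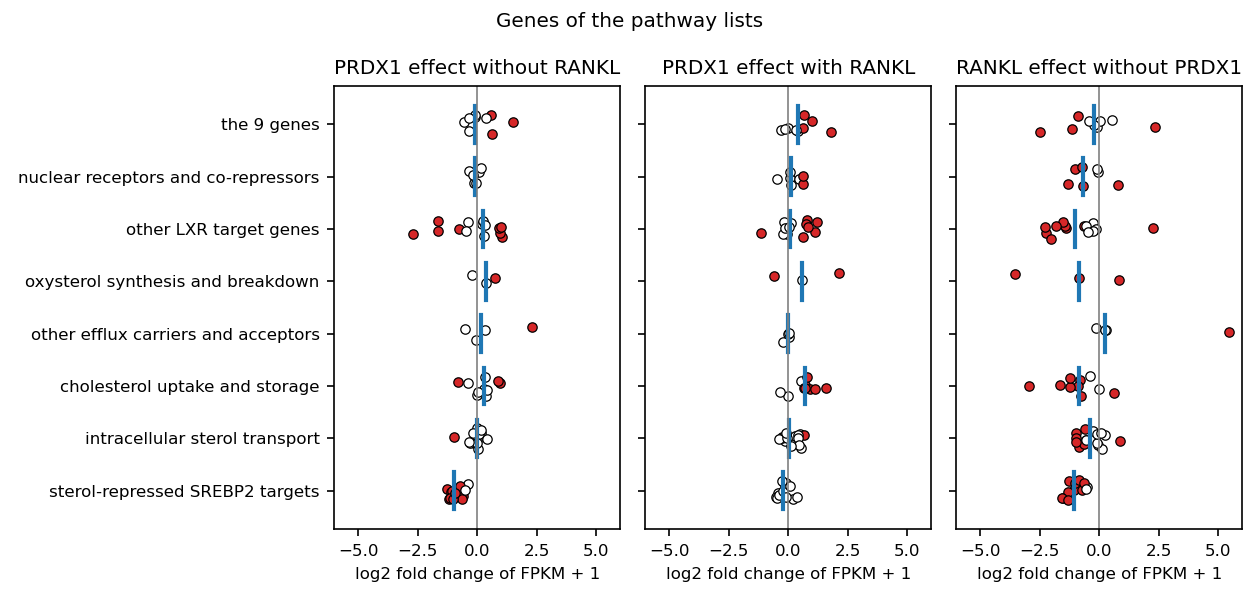
Log2 fold changes of FPKM + 1 for each tested gene of the pathway lists in 3 comparisons. Each point is a gene, filled where it passed the test, and the blue bar is the list's median. SREBP2 targets lie below 0 without RANKL (median -0.98) and nearer to 0 with it (median -0.20, none filled), and the other LXR targets are shifted down by RANKL (-1.02).

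Genes with the pattern most like 4 of the 9 were sought by Pearson correlation of log2(FPKM + 1) over the 8 libraries, which share the 4 treatments, among 1524 genes whose group means spanned at least 1 log2 unit. For Apoe they were Wfdc17, Ctsb and S1pr1 (r = 0.997, 0.997 and 0.996), and for Nr1h3 they were Arrdc4, Btg1 and Pmepa1 (r = 0.997, 0.993 and 0.993). For Mylip they were B4galt6, Pcp4l1 and Pacc1 (r = 0.996, 0.996 and 0.995), and for Abca1 they were Ptgir, Stom and the microRNA gene Mir7062 (r = 0.946, 0.941 and 0.941). Mir7062 has only 66 exon bases and averaged 0.668 FPKM with RANKL alone, so its values may rest on few reads. Among the 9 genes themselves, r was 0.92 between Mylip and Apoe, 0.93 between Nr1h3 and Npc2, and -0.25 between Abca1 and Nr1h3.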

How the data were processed

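The authors sequenced 8 RNA libraries and, per the submitters' processing notes, used HISAT2, HOMER and DESeq2 with mm10. The table they deposited holds FPKM values counted by HOMER on exons of RefSeq genes, on both strands, with 1 transcript per gene and each library scaled to its own total. Values were therefore not counts. FPKM times transcript length was a whole number of reads, within 0.1 of a read, for 99.89% to 100% of the values checked in each library, which gave library totals of 27283676 to 46173465 reads. Precision is limited by 2 libraries per group. Pairs of libraries in a group differed by more than sampling noise (chi-square per degree of freedom 4.71 to 9.58).

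The model was fitted on log2(FPKM + 1) by limma 3.58.1 (R 4.3.3) for 4 groups, with an intensity trend, over the 11700 genes whose mean FPKM reached 0.5, in 7 contrasts, with Benjamini-Hochberg adjustment over all of them. An exact permutation test of 2 against 2 libraries cannot give a p below 0.333, so single-gene permutation tests were not used. In data simulated for PRDX1 without RANKL (11698 genes), 49 of 50 genes changed 2-fold and 46 of 49 changed 0.5-fold were recovered, with 4 false calls. Alternatives were pseudocount 0.1, no filter, quantile and upper-quartile scaling, limma-voom with TMM factors on recovered reads, a replicate block, only the libraries compared, and each library left out. Named list genes were, per list, up to 3 passing genes with the largest change in each PRDX1 comparison and in RANKL without PRDX1. Others that complete a count of 5 or fewer or show a level (Nr1h2, Ppard, Rxrb, Tgm2, Smpdl3a, Fasn, Insig1 and the like) were chosen after their values were seen. The lists include items that are not reported here. The 9 genes and all lists were chosen with earlier results of these data known. Exon overlaps came from GENCODE annotation and upstream sequences from RefSeq on GRCm38.p6.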

Additional observations from a re-analysis of the deposited data

Results flagged for a closer look

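The PRDX1 effect differed between cells with and without RANKL for 3 of the 9 genes, by the interaction term of the limma model. The effect with RANKL minus that without it was 1.20 on the log2 scale for Apoe (limma adjusted p = 5.17e-05) and 1.08 for Abca1 (limma adjusted p = 0.000464), and -0.84 for Nr1h3 (limma adjusted p = 0.00349). All 3 kept their direction and passed under every alternative run, with ranges of 1.07 to 1.33 for Apoe, 0.96 to 1.19 for Abca1 and -1.04 to -0.65 for Nr1h3 when single libraries were left out. No gap test for a single outlying library was made, because each group has 2 libraries.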

How the results depend on the processing

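The number of the 9 genes that passed stayed within 1.5 times its value in each of the 7 comparisons under every alternative run. Over single genes, 638 values kept direction and side of the threshold, 14 newly passed, 4 no longer passed and 10 changed sign. None of the 10 that changed sign passed in the first place. Leaving out a library gave -0.18 to 0.01 (0.0074 without the second library with neither agent) for PRDX1 without RANKL on Abca1. It gave -0.22 to 0.25 for PRDX1 with RANKL on Abcg1 (-0.2206 without the first RANKL library, -0.0183 without the second PRDX1 + RANKL library), -0.34 to 0.12 for RANKL on Abcg1 (0.0682 without the second library with neither agent, 0.1239 without the first RANKL library), and -0.0596 to 0.0033 for RANKL with PRDX1 on Scarb1 (0.0033 without the second PRDX1 library). RANKL on Lpcat3 became -0.0424 under quantile normalization, -0.0397 under upper-quartile scaling, -0.0712 under limma-voom and -0.0114 to 0.0618 when single libraries were left out (-0.0114 without the second RANKL library). PRDX1 without RANKL on Apoe no longer passed under quantile normalization (0.28) or without the second library of either group (0.53 and 0.52), nor PRDX1 with RANKL on Npc1 without the first RANKL library (0.56). Mylip passed for RANKL with PRDX1 under 4 scalings or pseudocounts (-0.63 to -0.76), without the second PRDX1 library (-0.59) and without the first PRDX1 + RANKL library (-0.64), and for PRDX1 with RANKL under limma-voom (0.62), and its interaction passed under pseudocount 0.1 (0.65), limma-voom (0.70) and 3 of the settings that leave out a library. The Abcg1 interaction passed without the second RANKL library (0.59). Lpcat3 passed for PRDX1 without the second PRDX1 library (-0.60). The cause of these shifts was not tested.

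Scaling moved the split of all genes between higher and lower in the RANKL comparisons: 54.3% of genes that passed for RANKL without PRDX1 were higher, and 43.8% under limma-voom. The median over all genes between RANKL alone and PRDX1 alone moved from 0.13 to 0.01 under limma-voom. Deviations of same-numbered libraries were only weakly correlated between groups (0.01 to 0.10), which cannot show whether the libraries were paired. With the replicate block 3, 4 and 4 genes passed for PRDX1 without RANKL, PRDX1 with RANKL and RANKL without PRDX1, with no call changed.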
